A study of Drosophila melanogaster with 4 samples.

Results

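The sequence 3LHet holds assembled pericentric heterochromatin of the left arm of chromosome 3, and 351 enriched regions of Su(var)3-9 were listed on it out of 21932 in the combined list of the replicate set. These members were taken by position alone, as every enriched region whose sequence name is 3LHet. The same choice gave 308 of 6699 regions in ChIP replicate 1 and 266 of 10048 in ChIP replicate 2. No depleted region lay on 3LHet in any of the 3 lists. The chromatin came from wild-type larvae of the third instar of the strain Oregon-R of Drosophila melanogaster, and all 4 libraries of the series, 2 of ChIP DNA and 2 of input DNA, share that strain, genotype and stage. The antibody Q2598 is an affinity-purified rabbit serum against residues 320 to 419 of Su(var)3-9. Homogenized larval tissue was used, so strong binding in few cells and weak binding in many cells cannot be told apart. Coordinates are those of FlyBase release 5, in which 3LHet is 2555491 bp long, or 1.83% of the assembled length without Uextra. The lists carry no read counts, so read depth is unknown and no counting error can be given for a single region.

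Su(var)3-9 is a methyltransferase that places methyl groups on a lysine in the tail of histone H3. The methylated tail is bound by heterochromatin protein HP1, which can recruit more of the enzyme, and chromatin of this kind silences genes placed near centromeres in the fly. Pericentric DNA is rich in transposon remnants and satellite repeats, with a small number of genes between them. The comparison asks where along 3LHet the ChIP signal was called as enriched, how long and how strong the domains were, and which of them both libraries list.

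Enriched regions covered more of 3LHet than of any other of the 13 sequences, in each of the 3 lists. They covered 57.7% of it in the combined list, 48.2% in replicate 1 and 37.4% in replicate 2, a mean of 42.8% ± 7.60 (SD, n = 2) over the replicates. The 5 other Het sequences pooled were covered at 46.4%, 36.1% and 28.5% in the same order. Thus 3LHet lay above them by 12.1 percentage points in replicate 1 and 8.95 in replicate 2, a mean difference of 10.5 ± 2.20 (SD, n = 2). The direction was the same in both libraries, and the exact two-sided sign-flip permutation p was 0.5, the smallest that 2 libraries allow. No difference between sequences could therefore pass the usual threshold here. All shares of a sequence are over its full length. How many of its bases are resolved or can have reads assigned was not tested for any sequence.

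The nearest sequences in covered share were 3RHet, the heterochromatin of the right arm of the same chromosome, and the base of arm 3L itself. On 3RHet the share was 51.9% in the combined list, 40.4% in replicate 1 and 33.7% in replicate 2. The excess of 3LHet over 3RHet was 5.74 percentage points ± 2.83 (SD, n = 2; exact permutation p = 0.5). The last 2 Mb of 3L was covered at 53.8%, 40.7% and 34.2%, which left an excess for 3LHet of 5.32 points ± 2.98 (SD, n = 2; exact permutation p = 0.5). With only the last 1 Mb of 3L, at 59.8%, 51.1% and 39.3%, the order turned, and the difference of 3LHet from it was −2.11, −2.92 and −1.85 points. That last stretch of the arm was thus covered slightly more than 3LHet, in each list.

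**Figure D1:**
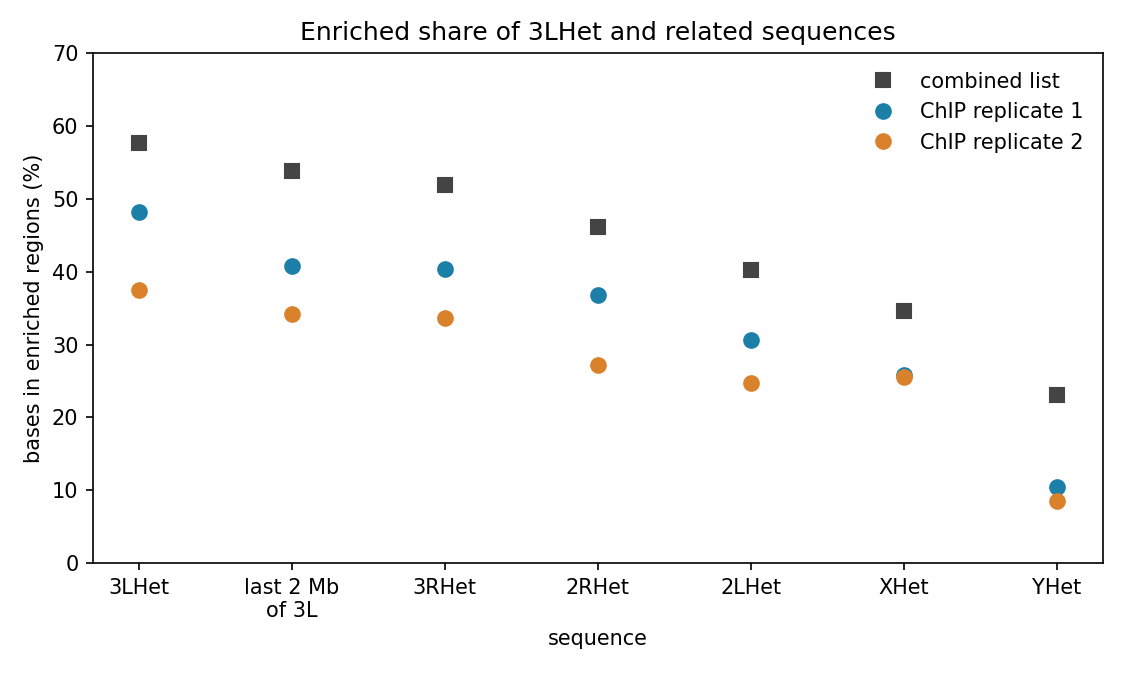
Share of bases inside enriched regions (y axis, percent) on 3LHet, the last 2 Mb of 3L and the other Het sequences (x axis), with squares for the combined list and circles for the 2 ChIP replicates. In each list 3LHet has the highest point, at 57.7%, 48.2% and 37.4%, and YHet the lowest.

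The high coverage came with long domains and, in the replicate lists, with many regions per Mb. Replicate 1 listed 121 regions per Mb on 3LHet against 47.9 over all sequences, and replicate 2 listed 104 against 71.9. Both were rank 1 among the 13 sequences. In the combined list the density was 137 against 157 per Mb, rank 6. The median region of 3LHet measured 2807 bp in the combined list, against 1588 bp over all sequences. In replicate 1 it was 2716 bp against 1832 bp, and in replicate 2 2516 bp against 1738 bp. The middle 50% of the combined regions ran from 1716 to 4836 bp, and the longest reached 25481 bp. Regions of at least 10 kb numbered 29 in the combined list, 8.26% of its regions on 3LHet, and they held 29.6% of the covered bases. Over all sequences 141 combined regions, or 0.643%, were that long, so 20.6% of the long domains of the whole list lay on this 1 sequence. The nearest Het sequence was similar, since 3RHet held 27 such regions, or 10.7 per Mb against 11.3 on 3LHet, with 30.1% of its covered bases. On 2RHet there were 25, or 7.60 per Mb. Per Mb, replicate 1 listed 8.61 on 3LHet, 5.96 on 3RHet and 3.95 on 2RHet, and replicate 2 listed 3.91, 3.57 and 1.82 (exact permutation p = 0.5 for 3LHet against each). In replicate 1 the sequence held 22 of 96 such regions (22.9%) and in replicate 2 10 of 46 (21.7%). Among all 13 sequences 3LHet ranked 1 by median length in the combined list and in replicate 2, and 3 in replicate 1. There 2RHet and 3RHet had longer medians of 2828 and 2809 bp. In replicate 2 the median of 3RHet was close behind at 2505 bp. The other Het sequences pooled had medians of 2463 bp in the combined list, 2675 bp in replicate 1 and 2323 bp in replicate 2.

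**Figure D2:**
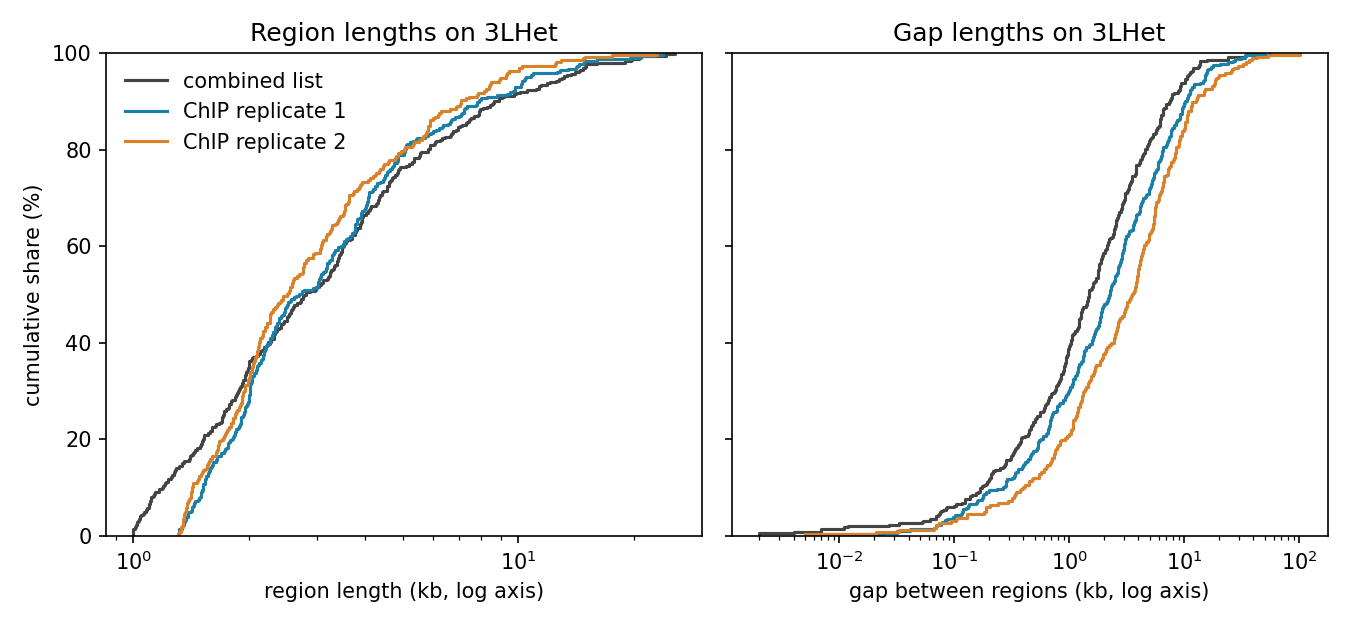
Cumulative share (y axis, percent) of region lengths (left) and of gaps between regions (right) on 3LHet, in kb on log axes, for the combined list and both ChIP replicates. Medians of region length lie close together at 2807, 2716 and 2516 bp, while the median gap lengthens from 1484 bp in the combined list to 2252 bp in replicate 1 and 3552 bp in replicate 2.

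The longest combined domain lay at 348584 to 374064 and had a score of 0.878. Both replicates broke it into pieces. Replicate 1 listed 5 regions inside it that filled 85.7% of its bases, and replicate 2 listed 4 that filled 63.6%. The next longest, at 1400539 to 1424750 (24212 bp, score 1.53), was a single unbroken region in every list. Replicate 1 gave it as 1400567 to 1424279 with a score of 1.89, and replicate 2 as 1401241 to 1424077 with a score of 1.42. It was also the highest-scoring of the 10 longest domains.

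Another 3 of the 10 longest stood as 1 region in replicate 1. The domain at 1609310 to 1630130 (20821 bp, score 1.14) was filled to 99.9% by 1 replicate 1 region, and replicate 2 split it into 7084 and 12926 bp. The domain at 1480733 to 1500311 (19579 bp, score 1.37) was filled to 99.3% in replicate 1 and to 87.1% by 3 regions in replicate 2. The domain at 1591494 to 1607499 (16006 bp, score 1.35) was 1 region in both libraries, filled to 99.5% and 92.8%. The other 5 had 2 to 4 pieces in replicate 1 and 1 to 4 in replicate 2. They began at 543264 (20529 bp), 1437188 (19748 bp), 1881601 (18954 bp), 380257 (14965 bp) and 577808 (14958 bp). All 10 overlapped regions of both replicate lists, and 5 of them began between 1400539 and 1609310.

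Scores on 3LHet can be read on a log2 scale, although the files name no scale. Taken against the commonest score of its list, 349 of the 351 combined scores equalled the log2 of a ratio of whole numbers no larger than 5000, within a relative tolerance of 2e-12. The same held for 305 of 308 scores in replicate 1 and 253 of 266 in replicate 2. With natural or base 10 logarithms at most 2 scores of a list did so. A difference of 1 between scores of a list is therefore taken as a ratio of 2. The zero point of each list is not given, so scores are compared within a list only.

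The median score was 0.767 in the combined list, against 0.396 over all sequences. It was 1.14 against 0.678 in replicate 1, and 0.820 against 0.548 in replicate 2. By median score 3LHet ranked only 5 among the 13 sequences in the combined list and 6 in each replicate. It therefore stood first in covered share and in the middle by score. Its pooled Het neighbours had medians of 0.786, 1.16 and 0.877.

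Long regions tended to score higher, but the extreme scores sat on short ones. Across regions of 3LHet, Spearman's rho of length with score was 0.41 in the combined list (351 regions), 0.39 in replicate 1 (308) and 0.47 in replicate 2 (266). These correlations are descriptions over regions that share a library and a caller. When the combined regions were ordered by length and cut into 4 equal groups, the shortest group had a median score of 0.560 and the longest 0.984. The spread narrowed as length grew. Scores spanned 0.125 to 3.45 among the shortest 88 regions and 0.472 to 1.53 among the longest 87.

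**Figure D3:**
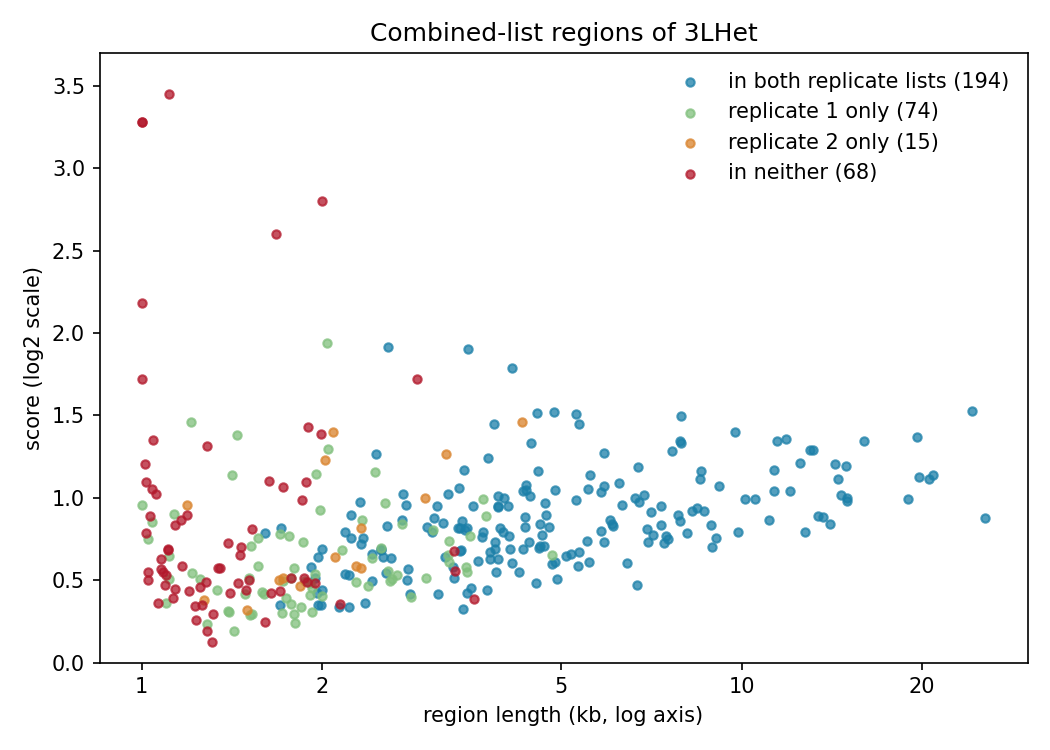
Score (y axis, log2 scale) against region length (x axis, kb, log axis) for the 351 combined regions of 3LHet, coloured by whether they overlap a region of both, 1 or neither replicate list. The 6 highest scores, from 2.19 to 3.45, belong to regions of 2001 bp or less that overlap neither replicate list, while the 10 longest domains score from 0.878 to 1.53.

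The 6 highest combined scores belonged to regions that neither replicate list contains. The top region, at 30668 to 31780 (1113 bp), scored 3.45. It was followed by 1303863 to 1304863 and 1920671 to 1921671, both 1001 bp long with the identical score 3.28, and by 539490 to 541490 (2001 bp, 2.80), 1736841 to 1738513 (1673 bp, 2.60) and 848798 to 849798 (1001 bp, 2.19). Against the commonest score of the list these correspond to ratios of 9, 8, 8, 5.75, 5 and 3.75. The regions of 1113 and 1001 bp are shorter than any region in the replicate lists, where the minimum is 1301 bp. On 3LHet 116 of the 351 combined scores (33.0%) also occurred elsewhere in the list, and their regions had a median length of 1576 bp against 3924 bp for the rest. The share of repeated scores over all sequences was not computed, so 33.0% cannot be called high or low. How many reads stand behind each score is not recorded.

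Of the other 4 among the top 10, the region at 1764273 to 1766306 (score 1.94) was listed in replicate 1 only. The remaining 3 were listed in both libraries. They lay at 498380 to 500957 (2578 bp, 1.92), 863000 to 866503 (3504 bp, 1.90) and 306841 to 310976 (4136 bp, 1.79).

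A single site was among the 5 highest scores of both replicates on 3LHet. In replicate 1 the highest score on 3LHet was 3.25, at 1883556 to 1886113. In replicate 2 the same site, listed as 1883373 to 1886420, scored 2.53 and ranked 4. It lies within the combined domain of 18954 bp that starts at 1881601, whose own score was only 0.994. Other leading sites had partners further down. The region at 263255 to 265583 scored 2.52 in replicate 1 (rank 4) and its partner 1.99 in replicate 2 (rank 8). The region at 1022258 to 1024137 scored 2.72 in replicate 2 (rank 1) and its partner 2.12 in replicate 1 (rank 10). The replicate 2 region at 2057524 to 2060325 (2.53) had a partner of 1387 bp that scored 1.87. Of the leading regions, 5 had no partner. They were 341098 to 342515 (3.17), 1764239 to 1766246 (2.84) and 135521 to 138024 (2.46) in replicate 1, and 2051699 to 2053053 (2.72) and 2092963 to 2094877 (2.59) in replicate 2.

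Coverage varied along the sequence. In 26 windows of 100 kb, the last of them 55491 bp long, the combined list covered from 30.6% to 79.1%, with a median of 59.2%. At least 50% was covered in 19 windows of the combined list, 12 of replicate 1 and 2 of replicate 2. The most covered window, 400001 to 500000, reached 79.1% in the combined list, 70.1% in replicate 1 and 47.2% in replicate 2. Window 2000001 to 2100000 had 74.5%, 51.6% and 39.7%. Window 1400001 to 1500000 had 72.3%, 69.0% and 64.2% and was the most alike in the 3 lists. It also held the most bases listed by both replicates at once, 62.2%.

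The windows least covered in the combined list were 100001 to 200000, 2100001 to 2200000 and 2300001 to 2400000. The first was covered at 30.6% in the combined list, 24.0% in replicate 1 and 15.7% in replicate 2. The values of the second were 36.0%, 29.3% and 21.2%, and those of the third were 36.5%, 31.0% and 18.5%. They were also the 3 lowest of replicate 2, but in replicate 1 window 1000001 to 1100000 was lowest. Each of the 3 contains 1 of the 3 longest gaps of the combined list. Replicate 1 exceeded replicate 2 in 25 of the 26 windows, and the median difference over all 26 was 10.7 percentage points. The exception was 1000001 to 1100000 with 22.8% against 27.4%. Over all sequences it was replicate 2 that covered more, at 15.3% against 11.5% in replicate 1. On each of the 5 other Het sequences replicate 1 covered more, with 40.4% against 33.7% on 3RHet. On the last 2 Mb of 3L it covered 40.7% against 34.2%. A higher share in replicate 1 was therefore not particular to 3LHet. The order of the windows was similar in both libraries (Spearman's rho 0.87, Pearson's r 0.88 over 26 windows of the same sequence, given as a description).

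Scores did not follow coverage along the sequence. The mean score weighted by length ran from 0.581 to 1.29 over the 26 windows of the combined list, and its rank correlation with covered share was 0.16. The highest mean score was in the first window, which was covered at only 40.8%, and the next highest, 1.28, in window 1400001 to 1500000. The last 5 windows, from 2100001 on, all had means below 0.8 in the combined list, and the final one was lowest in every list, at 0.581, 0.843 and 0.572. That stretch kept its covered share in places, such as 65.3% in window 2200001 to 2300000.

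**Figure D4:**
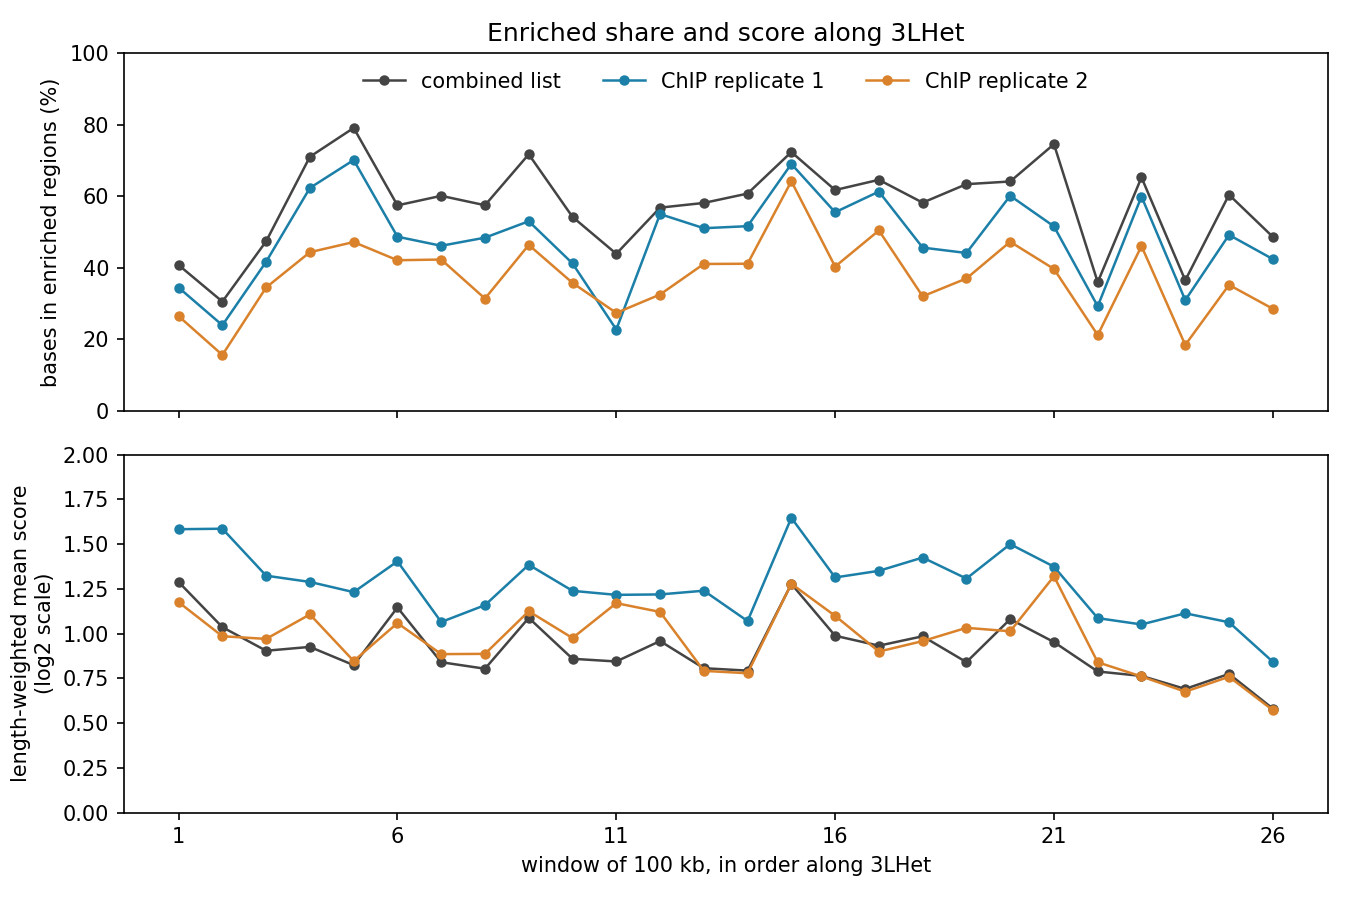
Share of bases in enriched regions (upper panel, percent) and mean score weighted by length (lower panel, log2 scale) in 26 windows in order along 3LHet, each of 100 kb but the last, for the combined list and both replicates. Coverage is low in windows 2, 22 and 24 of every list and lowest in window 11 of replicate 1, and the mean score is lowest in the last window, at 0.581, 0.843 and 0.572.

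Dense blocks were defined as chains of regions less than 2 kb apart that span at least 20 kb. The combined list formed 23 such blocks, which spanned 28.5% of 3LHet and held 116 of its 351 regions and 44.0% of the covered bases. Inside the blocks from 67.0% to 98.5% of the bases were enriched, with a median of 90.5%. Replicate 1 formed 13 blocks and replicate 2 formed 4, spanning 13.8% and 4.04% of the sequence. The number of blocks therefore depended strongly on the list. In the combined list 206 of the 352 gaps were shorter than 2 kb, against 147 of 309 in replicate 1 and 100 of 266 in replicate 2.

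The longest block ran from 343018 to 440780. It spanned 97763 bp with 9 regions, and 90.5% of it was enriched in the combined list, 79.4% in replicate 1 and 61.2% in replicate 2. The next, 1591494 to 1653087 (61594 bp, 5 regions), was covered more evenly, at 93.7%, 91.8% and 84.7%. The block at 2017496 to 2067689 (50194 bp) was made of 13 regions of 1025 to 8265 bp. It was covered at 81.0% in the combined list but at only 46.5% in replicate 1 and 40.6% in replicate 2. The block at 1171655 to 1212516 (40862 bp) had 91.8%, 86.9% and 73.9%, and that at 1397678 to 1432899 (35222 bp), which holds the unbroken domain of 24212 bp, had 93.7%, 86.3% and 81.5%.

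**Figure D5:**
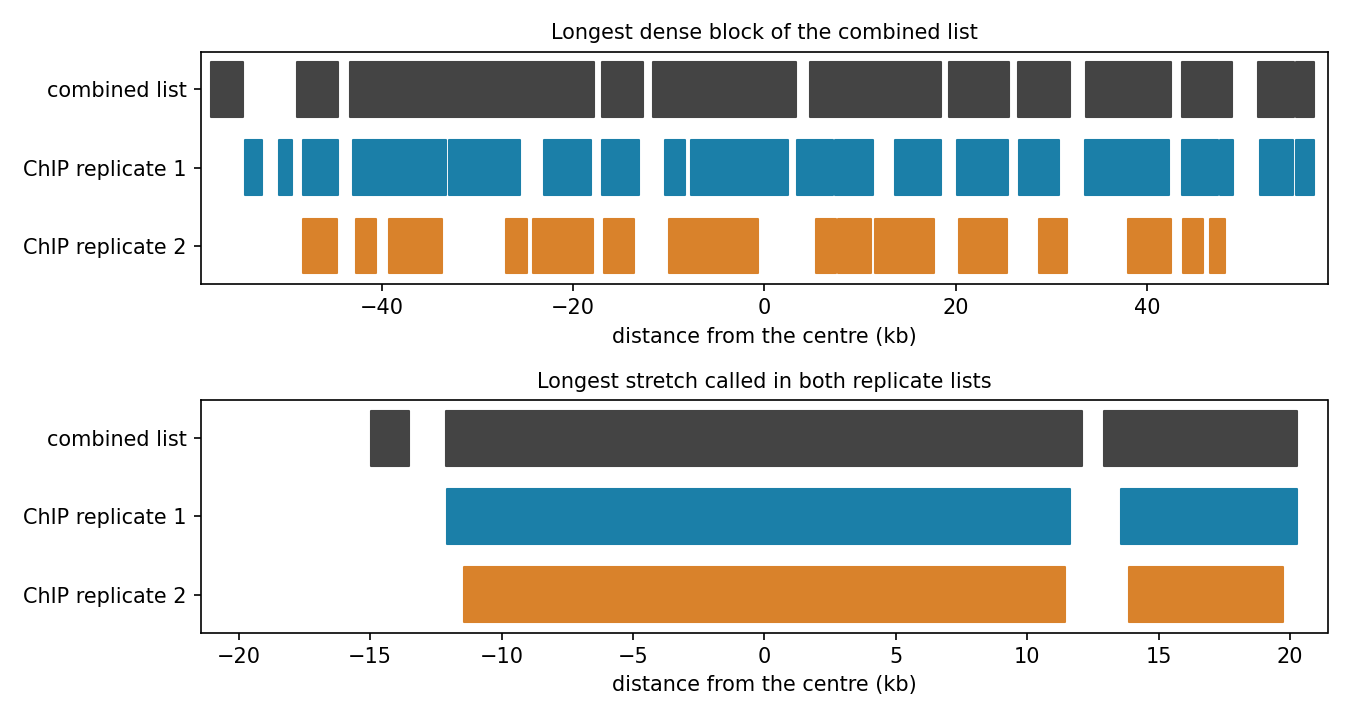
Enriched regions of the 3 lists (bars) around the longest dense block of the combined list (upper panel) and around the longest stretch called in both replicate lists (lower panel), by distance from the centre in kb. The block of 97763 bp is cut into many pieces in the replicates, while the stretch of 22837 bp is 1 region in each list.

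The 5 longest gaps of the combined list were also gaps in both libraries. They lay at 2328174 to 2376380 (48207 bp), 101529 to 135908 (34380 bp), 2160851 to 2194640 (33790 bp), 200774 to 224688 (23915 bp) and 1456936 to 1480732 (23797 bp). Replicate 2 listed no base inside any of them. Replicate 1 listed none inside the first and 388, 207, 271 and 40 bp inside the others, in each case the edges of regions that reach in from outside. Both libraries went into the combined list, and only 9 replicate 1 regions and 0 replicate 2 regions lay wholly outside it. Its gaps are therefore nearly bound to be gaps in each library, which gives no independent check of them. These 5 gaps are all those of at least 20 kb in the combined list and made up 6.42% of 3LHet. Counting only bases outside all 3 lists, 21 stretches of at least 10 kb remained, with 354949 bp or 13.9% of the sequence. No sequence of release 5 was used here, so whether these gaps hold resolved bases or bases to which reads can be assigned was not tested.

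The longest gap of a single library was much longer. Replicate 2 listed nothing from 66468 to 168887, a stretch of 102420 bp chosen here after its value was seen. Replicate 1 listed 8 regions there with 13461 bp, and the combined list 10 regions with 15302 bp. In replicate 2 the gaps of at least 20 kb numbered 12 and took up 18.5% of the sequence, against 8 and 9.89% in replicate 1.

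Long gaps took up less of 3LHet than of 3RHet and 2RHet in both libraries. Gaps of at least 20 kb took up 22.9% of 3RHet in replicate 1 and 26.9% in replicate 2, and 28.7% and 40.5% of 2RHet. The difference of 3LHet from 3RHet was −13.0 percentage points in replicate 1 and −8.42 in replicate 2, a mean of −10.7 ± 3.27 (SD, n = 2; exact two-sided permutation p = 0.5). That from 2RHet was −18.8 and −22.0 points, a mean of −20.4 ± 2.28 (SD, n = 2; exact permutation p = 0.5). That from the last 2 Mb of 3L was −8.50 and −1.55 points, a mean of −5.02 ± 4.91 (SD, n = 2; exact permutation p = 0.5), and it was 0.161 points in the combined list. Dense blocks spanned slightly less of 3LHet than of 3RHet, at 13.8% against 15.7% in replicate 1 and 4.04% against 6.96% in replicate 2 (exact permutation p = 0.5). On 2RHet they spanned 9.44% and 4.95%, so that the direction differed between the libraries (exact permutation p = 1). On the last 2 Mb of 3L they spanned 12.3% and 2.99%, less than on 3LHet in both libraries (exact permutation p = 0.5). A p of 0.5 is the smallest that 2 libraries can give.

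Most of what replicate 2 listed on 3LHet was also listed by replicate 1. The libraries had 860688 bp in common, 69.9% of the 1230793 bp of replicate 1 and all but 95611 of the 956299 bp of replicate 2, while replicate 1 alone listed 370105 bp. The Jaccard index, the common bases divided by the 1326404 bp in at least 1 library, was 0.649. It was 0.637 on 3RHet, 0.622 on 2RHet, 0.627 on the last 2 Mb of 3L and 0.679 on XHet. Lower values were found on 2LHet, at 0.582, and on YHet, at 0.286. Of the 308 regions of replicate 1, 229 overlapped a region of replicate 2, or 74.4% (95% Wilson interval 69.2 to 78.9), against 53.5% over all sequences. Of the 266 regions of replicate 2, 250 overlapped replicate 1, or 94.0% (90.5 to 96.3), against 37.5% over all sequences. Counted in bases, high overlap was not particular to 3LHet. Replicate 1 also listed 90.2% of the replicate 2 bases on 2RHet, 85.6% on 3RHet and 84.4% on the last 2 Mb of 3L. The share of bases on 3LHet lay between those of 2RHet and 3RHet. On 2LHet, XHet and YHet the shares were lower, at 82.4%, 81.3% and 49.3%. Compared with all sequences, regions of 3LHet also had a longer median and covered more of their sequence. The part of that in the shares of regions was not tested. The intervals cover counting error only. They treat regions as independent, although these are neighbours on 1 sequence from the same library, and may be too narrow.

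Regions found by 1 library were short. The 79 regions of replicate 1 without a partner had a median length of 1932 bp and reached 4082 bp, against a median of 3698 bp for regions with a partner. Their median score was 0.971 against 1.16. The 16 regions of replicate 2 without a partner had a median of 1780 bp and reached 2112 bp. Their median score, 0.910, was above the 0.818 of the partnered regions, so the order by score was opposite in the 2 libraries. All 16 overlapped the combined list, and 9 of the 79 did not.

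Where a region of each library had exactly 1 partner, which gave 166 pairs, the edges lay close together. Of their 332 edges, 212 (63.9%) differed by at most 500 bp and 60 (18.1%) by at most 100 bp, with a median of 327 bp and a maximum of 5899 bp. The replicate 1 region was the longer in 126 pairs and the replicate 2 region in 40. Scores of these pairs were ordered alike, with a rank correlation of 0.78 over the 166 pairs, given as a description of regions from the same sequence.

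Stretches listed by both libraries numbered 268 and covered 33.7% of 3LHet, with a median of 2233 bp. Of these stretches, 9 reached 10 kb. The 5 longest were 1401241 to 1424077 (22837 bp), 1592438 to 1607283 (14846 bp), 546201 to 560991 (14791 bp), 2188 to 16863 (14676 bp) and 1616986 to 1629911 (12926 bp). The scores of the regions that hold them were 1.54 to 1.89 in the first library and 1.00 to 1.42 in the second, above the 3LHet medians of 1.14 and 0.820 in every case. The stretch at 2188 to 16863 lies at the very start of the sequence, and the replicate 2 list has no further region after it until 53627.

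Of the 351 combined regions, 194 overlapped both replicate lists, or 55.3% (95% Wilson interval 50.0 to 60.4), against 15.6% of combined regions over all sequences. These 194 held 80.8% of the covered bases, with a median length of 4564 bp and a median score of 0.834. Another 74 overlapped only replicate 1 and 15 only replicate 2, with median lengths of 1850 and 2085 bp. The remaining 68 regions, 19.4%, overlapped neither list, against 44.4% over all sequences. Their median length was 1283 bp, and they made up 6.75% of the covered bases. The shortest region in the replicate lists measures 1301 bp, and 36 of the 68 were shorter than that. Combined regions of 3LHet were also longer than those over all sequences, with medians of 2807 and 1588 bp. The part of length in these shares was not tested, and the shares on the other Het sequences are not given here. Both libraries went into the combined list, and these overlaps therefore give no independent check of it. The Wilson interval covers counting error only and treats neighbouring regions as independent, so it may be too narrow.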

How the data were processed

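Regions of significant enrichment, as deposited, were analysed for 2 ChIP libraries and for the replicate set. Input libraries entered with no list. The submitters' processing notes list the aligner Bowtie 0.12.7. The caller, its threshold, the use of input and how multiply mapped reads were handled remain not given in the sources used here. Positions are on FlyBase release 5, per the file headers. Scores are the authors' value per region, deposited with no named scale. Titles gave each group and replicate number. Whether the libraries stem from separate larval collections is not stated, and their spread may be technical.

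Covered shares are bases in regions over the length in the file headers. Overlap means at least 1 bp. Sequences were compared by exact sign flips over the 2 replicate differences. Named regions are the 10 longest and 10 highest-scoring combined regions, the 5 highest-scoring of each replicate, and the 5 longest shared stretches, gaps and blocks, with the 3 most and 3 least covered windows. Members and lists were chosen with earlier results of these data known. Interval functions were tested on simulated data. Alternatives covered score, length, merging, overlap, block and gap limits, comparison windows and each list. Genes were not named, because only a gene table of release 6 was at hand. Python 3.11.15, NumPy 2.4.6, pandas 2.3.3 and SciPy 1.17.1 were used.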

Additional observations from a re-analysis of the deposited data

How the results depend on the processing

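Of 56 alternatives, 15 moved a value by more than its spread and 1 turned a direction. The spread was the SD over replicates or, without replicates, the binomial interval, and for counts a limit of 1.5 times. The 20 alternatives of the 3 differences in covered share were judged by direction only. For the Jaccard index the interval counts single bases, which are not independent within a region, so it is too narrow. Without replicate 1 or replicate 2 the covered share was 37.4% to 48.2%, the excess over the pooled Het sequences 8.95 to 12.1 points, over 3RHet 3.74 to 7.74 and over the base of 3L 3.21 to 7.43. The last of these turned to −2.39 with the last 1 Mb of 3L. Median length was 3243 bp in the top 50% by score, 3393 bp with the length minimum of the replicate lists and 2516 bp in replicate 2. Long gaps took up 18.5% in replicate 2, and 14.4% and 0% when set at 10 and 50 kb. The 23 dense blocks became 13 with gaps under 1 kb, 61 and 3 at 10 and 50 kb, and 13 and 4 in replicates 1 and 2. The Jaccard index was 0.638 in the top 50% by score and 0.656 after merging. The share of combined regions in both lists was 64.2% with the longer minimum and 49.3% with 50% overlap. Causes were not tested. With 2 replicates, leaving 1 out cannot move the mean share by more than its SD. The length minimum leaves the replicate lists as they are by construction. Merging regions less than 1 kb apart likewise cannot change blocks chained at under 2 kb or gaps of at least 20 kb. No paired analysis was possible because no input list was used here to set against the ChIP list of the same number. Sequences were compared within each library. Unknown depth limits what a missing region shows.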

Other observations

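The sequence was also cut into 4 parts of equal length. In the combined list the parts were covered at 55.2%, 56.6%, 62.8% and 56.0%, with 70, 104, 79 and 98 regions centred in them. Part 1 had the fewest and longest regions, with a median of 3878 bp and a median score of 0.893, and part 2 the most and shortest, with 2381 bp and 0.644. Replicate 2 had the same order of counts, with 57, 74, 66 and 69 regions, but replicate 1 did not, with 77, 75, 74 and 82. Replicate 1 had its highest median score in part 1 as well (1.28, against 1.07 to 1.15 in the others), and in replicate 2 parts 1 and 3 stood close together at 0.876 and 0.870. These differences were not tested.

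Regions that stood alone, with both neighbours at least 2 kb away, did not score lower than regions packed in dense blocks. The 52 lone combined regions had a median score of 0.839, the 116 in dense blocks 0.834 and the 183 in shorter chains 0.695. Both replicates listed 27 of the 52 lone regions, 75 of the 116 and 92 of the 183. The classes differ in region length, with medians of 2586, 3670 and 2508 bp, and no test was made.

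Some combined regions joined several regions of a library. Of the 351, 38 contained or touched 2 or more replicate 1 regions, up to 5, and 43 did so for replicate 2, up to 4. Most overlapped 1 region of replicate 1 (230) and 1 or none of replicate 2 (166 and 142). The reverse also occurred, with 20 replicate 1 regions and 1 replicate 2 region that reached across 2 or more combined regions.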
